A study of Arabidopsis thaliana with 2 samples.

Results

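The 8 genes described here encode RNA-binding proteins that act on pre-mRNA splicing in Arabidopsis thaliana: the glycine-rich proteins GRP7 (AT2G21660) and GRP8 (AT4G39260, named CCR1 in RefSeq), the polypyrimidine tract-binding proteins PTB1 (AT3G01150) and PTB2 (AT5G53180), the large U2AF subunits U2AF65A (AT4G36690) and U2AF65B (AT1G60900), and the small subunits U2AF35a (AT1G27650) and U2AF35b (AT5G42820). They were chosen by locus, and a read was given to the gene on its own strand with which it shared the most exonic bases of the RefSeq annotation of TAIR10.1. The genes held 941.33 of 499955 gene-assigned reads, 474 in replicate 1 and 467.33 in replicate 2, and they are 8 of 21102 genes with at least 1 read. The reads were PacBio full-length cDNA reads from inflorescences with closed floral buds of wild-type Col-0, the common laboratory accession, grown at 20 to 22 °C with 16 h of light and 8 h of dark. There was 1 condition with 2 biological replicates, each sequenced as 1 library, so no treatment or genotype was compared. The p-values compare these libraries with each other, or kinds of reads within a library or over both libraries added.

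GRP7 and GRP8 bind RNA through an RNA recognition motif followed by a glycine-rich stretch, and their transcripts are known to oscillate through the day. Both proteins are known to bind their own and each other's pre-mRNA and to shift splicing to a donor site inside the intron, giving a transcript with an early stop codon that nonsense-mediated decay removes. PTB proteins bind pyrimidine-rich tracts, and plant PTB transcripts are known to include a cassette exon with an early stop. U2AF recognizes the 3′ splice site, with the large subunit on the pyrimidine tract and the small subunit on the terminal AG.

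The libraries held 267716 and 255215 aligned reads, of which 256248 and 243707 were assigned to genes. The cap label, given by the authors' software to a 5′ end with an untemplated G, was present on 55.9% and 57.3% of nuclear reads but on 2.02% and 1.90% of plastid reads, whose transcripts are not capped. All 5 floral markers (AP1, AP3, PI, AG and SEP3) had reads, 37 to 160 per gene over both libraries, with a summed count of 213.5 and 199. The 5 markers of root and seed had 0 reads in both libraries. Between the libraries, 129 of 10001 genes with at least 10 reads (1.29%) differed by Fisher's exact test at an adjusted p under 0.05. None of the 8 genes was among them, and 1063 genes had an unadjusted p under 0.05, PTB1 being the only member with one.

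GRP7 was by far the most abundant of the 8 genes. Its count was 285.5 in the first library and 296.5 in the second. That is 1114 and 1217 reads in 1000000 gene-assigned reads (RPM), rank 63 among all genes with reads. A long read stands for a single cDNA molecule, so RPM was not divided by transcript length. Median read length ran from 762 nt in GRP8 to 2060 nt in U2AF65B, and an effect of length on read number was not tested. GRP8 followed with 75.5 and 52 reads, a mean of 254 ± 57.5 RPM (SD, n = 2), against 1165 ± 72.5 RPM for GRP7. The GRP7 range lay above that of GRP8 in both libraries, with 3.78 times as many reads in replicate 1 (95% interval 2.94 to 4.87) and 5.70 times in replicate 2 (4.25 to 7.65).

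The U2AF and PTB genes were lower. U2AF65A had 33 and 38.5 reads, or 143 ± 20.6 RPM, and U2AF35b had 35 and 21.33 reads, or 112 ± 34.7 RPM. The libraries of these neighbours overlapped, so their order was not resolved. PTB2 had 16 reads in each library (64.0 ± 2.27 RPM), U2AF35a had 15 and 14 (58.0 ± 0.771 RPM) and U2AF65B had 10 and 17 (54.4 ± 21.7 RPM). PTB1 was the lowest with 4 and 12 reads, or 15.6 and 49.2 RPM, the widest relative spread of the set (Fisher's exact p = 0.0445, adjusted p = 0.442). The ranges of PTB2 and U2AF35a both lay inside that of U2AF65B, and PTB1 overlapped U2AF65B only.

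**Figure D1:**
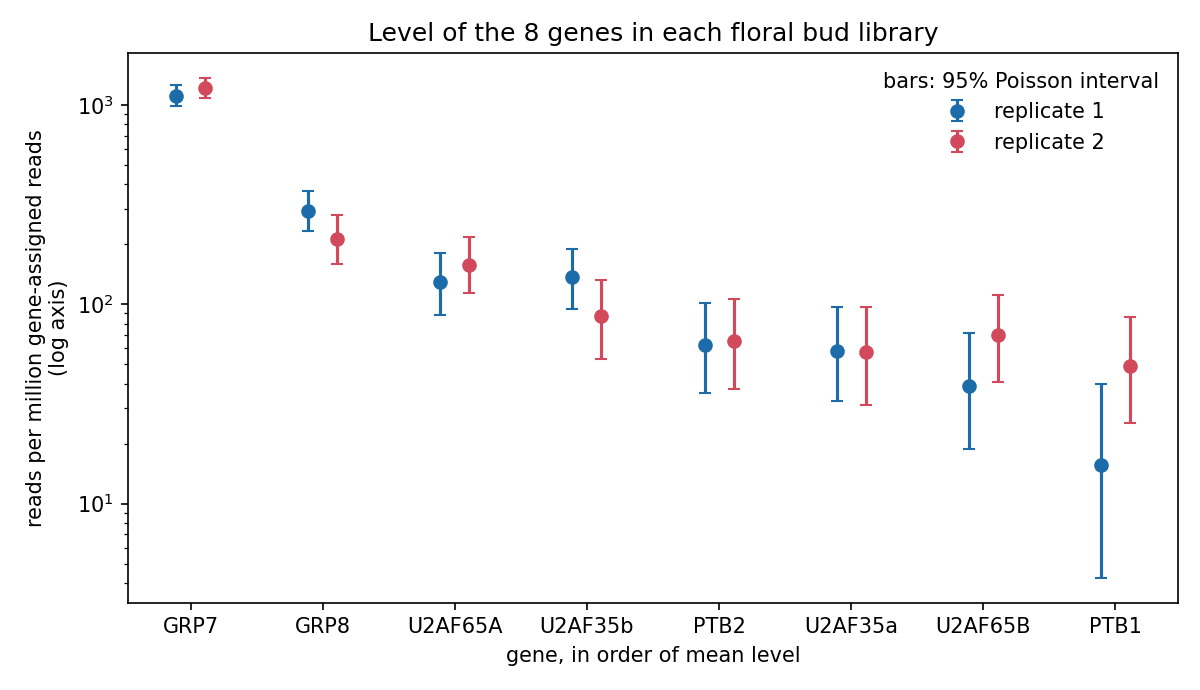
RPM (log axis) of each gene in replicate 1 and replicate 2, with 95% Poisson intervals that cover counting error only. GRP7 stands at 1114 and 1217 RPM, GRP8 between 213 and 295, and the lowest 4 genes have overlapping intervals.

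Within the paralog pairs, the large subunit A had more reads than B in both libraries, by 3.30 times (95% interval 1.65 to 6.60) and 2.26 times (1.29 to 3.98). U2AF35a had 0.429 times the reads of U2AF35b in replicate 1 (0.236 to 0.778) and 0.656 times in replicate 2 (0.339 to 1.27), and the second interval includes equality. PTB1 had 0.25 times the reads of PTB2 in replicate 1 (0.0877 to 0.712) and 0.75 times in replicate 2 (0.361 to 1.56). The direction was the same in both libraries for each pair, but for PTB and the small subunits only 1 of the 2 intervals lay apart from equality.

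GRP7 lies at chr2:9265084-9266557 on the minus strand. Its most-read RefSeq transcript has 2 exons, with a single 309-nt intron (chr2:9265894-9266202) inside the coding sequence. Of the reads that spanned it, 141 of 254 in replicate 1 (55.5%) and 134 of 268 in replicate 2 (50%) were spliced as RefSeq gives it. The whole intron was kept in 100 reads of replicate 1 (39.4%, 95% Wilson interval 33.6 to 45.5) and in 125 reads of replicate 2 (46.6%, 40.8 to 52.6). The known alternative donor, which lies 166 nt into the intron and removes only its last 143 nt, was used in 13 reads of replicate 1 (5.12%, 3.02 to 8.56) and 9 reads of replicate 2 (3.36%, 1.78 to 6.26). Over both libraries 47.3% of the spanning reads held either of these forms, and the intervals of the retained form lay above those of the inner donor in each library. The share of the RefSeq form did not pass the test between libraries (Fisher's exact p = 0.220, adjusted p = 1), nor did any of 5008 splice regions tested (0% called, with 32 at an unadjusted p under 0.05).

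GRP8, at chr4:18273829-18275216 on the minus strand, has the same layout with a 283-nt intron (chr4:18274568-18274850). The RefSeq form was read in 49 of 67 spanning reads of replicate 1 and 27 of 45 of replicate 2. The intron was kept in 13 reads of replicate 1 (19.4%, 95% Wilson interval 11.7 to 30.4) and 14 reads of replicate 2 (31.1%, 19.5 to 45.7). The inner donor, 158 nt into the intron, was used in 4 reads of each library, 5.97% (2.35 to 14.4) and 8.89% (3.51 to 20.7). Retention was lower than in GRP7 in both libraries, by 20.0 percentage points in replicate 1 (95% Newcombe interval 7.51 to 29.8) and by 15.5 in replicate 2 (-0.167 to 28.6), so that the second interval just includes 0. For the inner donor, the difference GRP7 minus GRP8 was -0.852 points (-9.51 to 4.15) and -5.53 points (-17.5 to 0.579), both intervals including 0.

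The first part of intron 1, up to the inner donor, is shown for both genes because it holds the early stop codon that all reads with the intron or the inner donor share (RefSeq sequence of TAIR10.1, 5′ to 3′ on the gene's strand, the in-frame stop in capitals). It spans chr2:9266037-9266202 in GRP7 and chr4:18274693-18274850 in GRP8.
GRP7 first part of intron 1: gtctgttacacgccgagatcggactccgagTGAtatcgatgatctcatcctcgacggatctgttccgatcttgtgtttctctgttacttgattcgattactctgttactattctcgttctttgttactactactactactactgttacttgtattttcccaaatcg
GRP8 first part of intron 1: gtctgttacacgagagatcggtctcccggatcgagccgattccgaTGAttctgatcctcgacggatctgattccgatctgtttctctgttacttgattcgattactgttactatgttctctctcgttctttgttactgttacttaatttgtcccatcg

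Translated from the annotated start codon, both GRP7 forms stopped after 48 codons instead of 176, and both GRP8 forms after 51 instead of 169. In the form made with the inner donor, 1 exon junction remained downstream of the stop, 133 nt away in GRP7 and 110 nt away in GRP8. In the form with the whole intron no junction remained, because the RefSeq transcripts used for the translation have no other intron. The alignment of the 2 first parts had 74.2% identical positions, close to the coding sequences of the genes (75.5%), and the rest of the intron had 68.9%.

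The inner donors are shown next, each with 12 bases before and 18 after the cut and the first bases of the intron in capitals (chr2:9266019-9266048 and chr4:18274675-18274704). The genes share an unbroken run of 26 nt across this donor, 4 before and 22 after the cut, against 15 nt across the RefSeq donor and 15 nt across the acceptor.
GRP7 inner donor: tttcccaaatcgGTacgttcatcttcctgc
GRP8 inner donor: tttgtcccatcgGTacgttcatcttcctgc
GRP7 first donor: attgattccaagGTctgttacacgccgaga
GRP8 first donor: atcgattctaagGTctgttacacgagagat

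The cap label, which marks reads that reach a capped 5′ end, was then compared between the forms. In GRP7 the cap label was on 66 of 100 retained reads of replicate 1 and 88 of 125 of replicate 2, against 89 of 141 and 80 of 134 spliced reads. The difference was 2.88 points in replicate 1 (95% Newcombe interval -9.41 to 14.7) and 10.7 points in replicate 2 (-0.931 to 21.9). Reads with the inner donor carried the cap label in 11 of 13 and 8 of 9 cases, 21.5 points (-6.39 to 35.3) and 29.2 points (-4.16 to 41.6) above the spliced reads. All 4 of these intervals include 0. Over both libraries the inner-donor reads stood at 19 of 22 against 169 of 275 spliced reads, 24.9 points higher (4.44 to 35.6), an interval that excludes 0. Adding the libraries treats their reads as 1 sample. The retained GRP7 reads were 6.99 points higher over both libraries (-1.44 to 15.2), an interval that includes 0. In GRP8 the retained reads carried it in 10 of 13 and 9 of 14 cases and the spliced reads in 34 of 49 and 18 of 27. Over both libraries that difference was 1.95 points (-19.1 to 19.7). GRP8 reads with the inner donor carried it in 1 of 4 and 3 of 4 cases, a difference from the spliced reads of -18.4 points over both libraries (-48.4 to 12.2), opposite in sign to GRP7. In the test of the RefSeq form against all other forms, no member passed within a library (adjusted p = 1 for the 4 member regions tested in replicate 1 and the 6 in replicate 2, Fisher's exact test), nor did any of 316 and 387 regions over all genes (0% called in each, with 11 and 9 at an unadjusted p under 0.05). Among GRP7 reads with both a cap and a 3′ label, the intron was kept in 40% of 165 and 50.3% of 175, so that retention was also present in molecules read from cap to poly(A) tail.

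Shares as high as these were rare among regions whose main form was spliced. Over all genes, 24883 splice regions had at least 20 spanning reads and a main form that was spliced, and their median share of other forms was 0%, with 75.8% of regions having none. GRP7 intron 1 had its intron kept in 43.1% of reads over both libraries, and 9 of the 24883 regions, itself included, were at or above that share. GRP8 intron 1 stood at 24.1%, with 58 regions at or above it. Regions whose most-read form kept the intron were left out, so these ranks of retention do not cover them. In all, the 6 members with enough reads had 36 such regions, of which 26 held no other form and 5 were at or above the 95th percentile of all regions, 7.14%. These are the regions of GRP7 and GRP8 intron 1, PTB2 intron 3, U2AF65A intron 11 and U2AF65B intron 4. For comparison, 17 related genes (other glycine-rich and RZ-1 RNA-binding proteins, PTB3, SF1, a U2AF35-related gene, cap-binding and nonsense-mediated decay factors) had 60 such regions in 10 genes. Of these, 4 were at or above that percentile, and the highest other-form share was 30.8% in ATRZ-1A, a zinc finger glycine-rich RNA-binding protein.

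**Figure D2:**
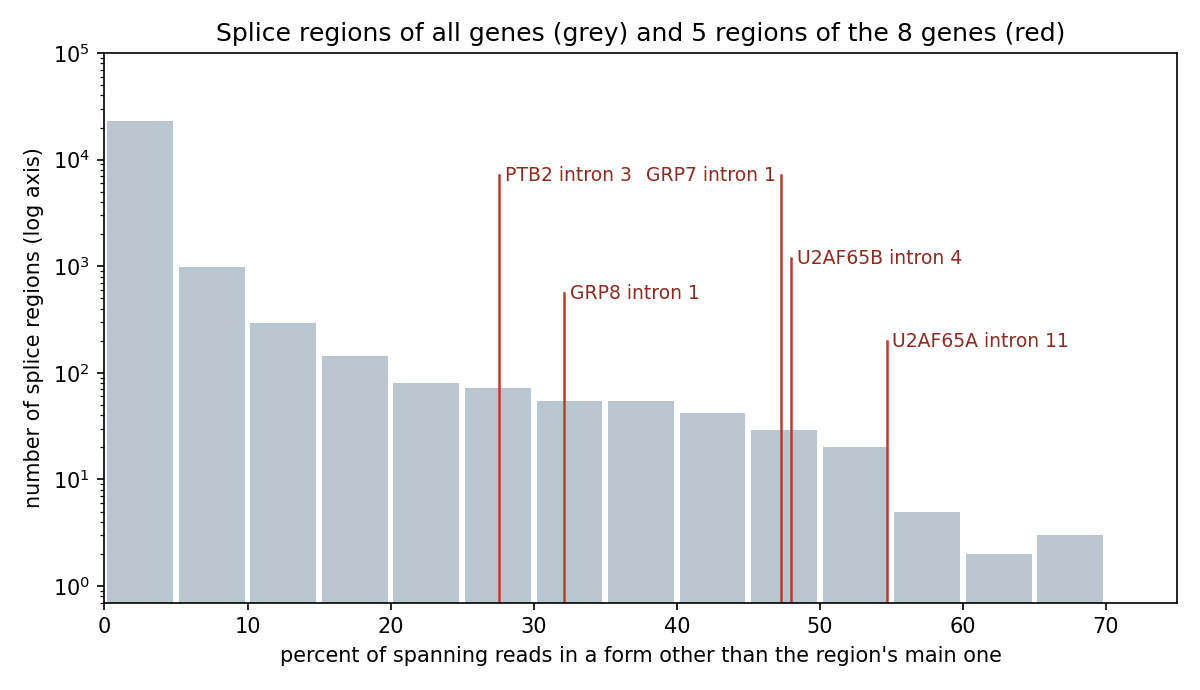
Splice regions of all genes with at least 20 spanning reads and a spliced main form (grey bars, log axis) by the percent of reads in a form other than the main one, and 5 regions of the described genes (red lines). The red lines lie between 27.6% and 54.7%, whereas most regions are in the lowest bin.

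The coding part of GRP7 exon 2, which encodes the glycine-rich stretch, held a different kind of junction. There, 15 reads had a junction inside the exon, beside 523.5 reads that covered this part without a masked gap (2.87%). The 15 were counted whether or not they covered all of it. They were spread over 13 junctions with at most 2 reads each and 42 to 242 nt long. Of the 13, 9 had GT and AG at their ends and 11 were a multiple of 3 long, and the sequence repeated across the cut by 0 to 11 nt with a median of 5 nt. RefSeq lists 1 of these junctions, which was read once. In GRP8 the 3 junctions that RefSeq lists inside exon 2 had no read among 111 covering reads, which allows a share of up to 2.70%, and 1 other junction was read once. At a pair of neighbouring regions of GRP7 exon 2, other forms fell in the same reads (7 reads with both, 3 and 2 with only 1, Fisher's exact adjusted p = 7.81e-11), but all 7 hold a single junction that crosses both regions. Over all genes, 49 of 168 pairs of regions (29.2%) were called. The pairs of these regions with intron 1 did not pass (Fisher's exact adjusted p = 0.527 and 0.307).

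**Figure D3:**
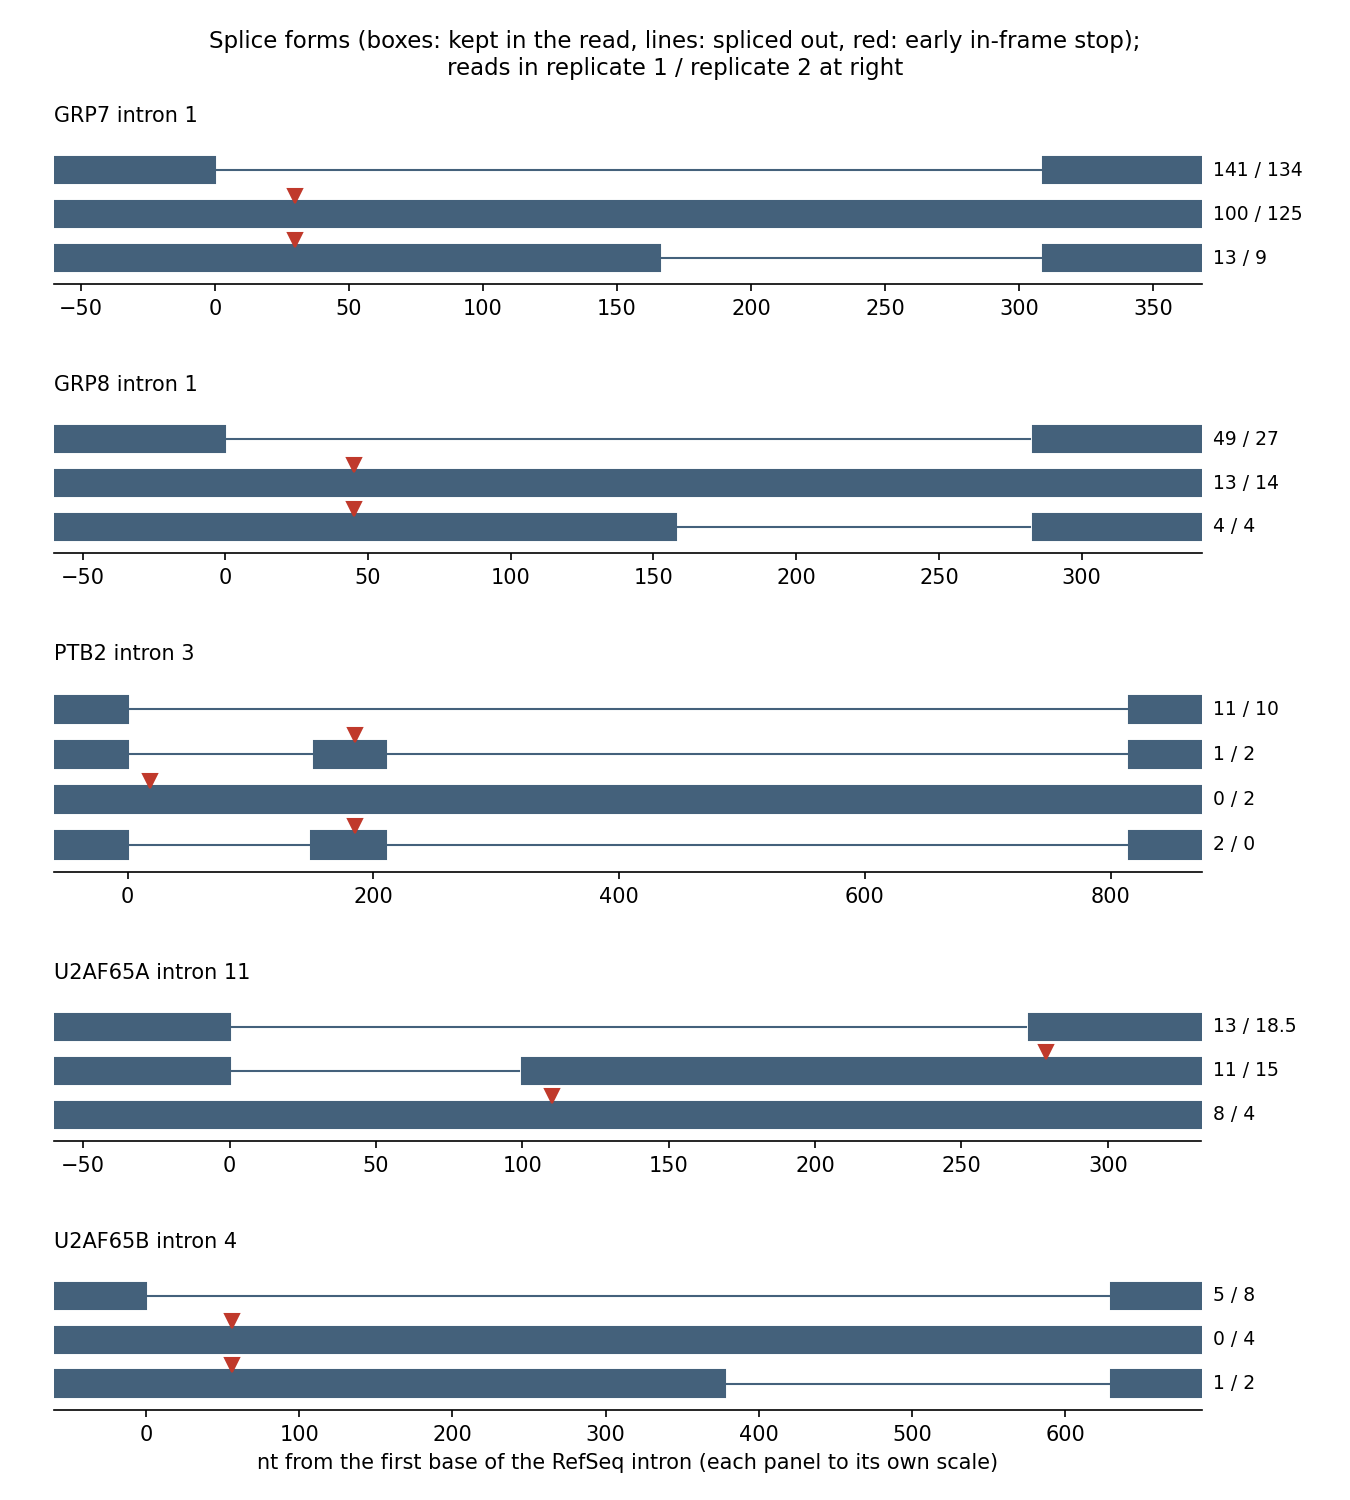
Splice forms with at least 2 reads at 5 introns, to scale from the first base of the RefSeq intron (boxes are kept in the read, lines are spliced out, red triangles mark the early in-frame stop), with the reads in replicate 1 and replicate 2 at the right. GRP7 and GRP8 share the same set of 3 forms, with the stop upstream of the inner donor.

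U2AF65A (chr4:17293938-17297761, minus strand, 13 exons) was spread over 3 forms near its 3′ end. At intron 11 (chr4:17294431-17294703, 273 nt), the RefSeq reference form was read in 13 of 32 spanning reads of replicate 1 and 18.5 of 37.5 of replicate 2, a mean of 45.0% ± 6.16 (SD, n = 2). An upstream acceptor, which keeps the last 173 nt of the intron, was used in 11 and 15 reads (37.2% ± 3.98). The intron was kept whole in 8 and 4 reads, 25% in replicate 1 (95% Wilson interval 13.3 to 42.1) and 10.7% in replicate 2 (4.23 to 24.4). No form held most of the U2AF65A reads in either library, and 11 of 24883 regions over all genes, itself included, had as high a share outside the main form (54.7% over both libraries). All 3 forms are in RefSeq. They encode 573, 565 and 542 codons, so that the predicted proteins differ in their C-terminal ends. The stop lay 59 and 228 nt upstream of the last junction in the forms with the upstream acceptor and with the whole intron.

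The acceptors of intron 11 are shown with the last bases of the intron in capitals, 20 bases before and 10 after the cut (chr4:17294594-17294623 and chr4:17294421-17294450).
U2AF65A upstream acceptor: ttggttgtgctgttttacAGccttttgcta
U2AF65A downstream acceptor: ctttaactcttaaaatgcAGgtgctttgac

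A further 4 U2AF65A reads, 1 in replicate 1 and 3 in replicate 2, spliced out 100 nt inside exon 10 (chr4:17295298-17295397), a GT-AG intron that RefSeq lacks and that gives a stop after 341 codons. Of the 5 reads with any other form at this place, none had the main form of intron 11, whereas 31 of 61 other reads did (Fisher's exact p = 0.0553, adjusted p = 0.133), so the coupling did not pass the test.

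U2AF65B (chr1:22423894-22428053, plus strand, 13 exons) had its other forms elsewhere. Intron 4 (chr1:22425297-22425926, 630 nt) was spliced as in RefSeq in 5 of 10 reads of replicate 1 and 8 of 15 of replicate 2. The other 12 reads fell into 7 forms that RefSeq lacks, among them 4 reads with the whole intron, all from replicate 2, and 3 reads that removed only the last part of the intron. All 7 forms met a stop after 220 to 226 of 589 codons, with 8 to 10 junctions downstream. The remaining 11 introns of the gene held no other form in 22 to 27 spanning reads each, and 33 of 24883 regions over all genes were at or above the 48.0% of intron 4. In U2AF65A the intron of the same number (433 nt) had other forms in 1 of 31 and 2 of 34.5 reads. The difference, U2AF65A minus U2AF65B, was -46.8 points in replicate 1 (95% Newcombe interval -73.2 to -17.4) and -40.9 points in replicate 2 (-64.5 to -15.4). The forms of U2AF65A intron 4 were an inner exon of 58 nt in 2 reads and the whole intron in 1, with a stop after 254 and 195 codons.

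An inner exon of U2AF65B intron 4 had the same ends in 3 reads, all of replicate 1, in 1 of them between the RefSeq donor and acceptor. It is shown with the stop in the frame of that read in capitals (chr1:22425574-22425674).
U2AF65B inner exon: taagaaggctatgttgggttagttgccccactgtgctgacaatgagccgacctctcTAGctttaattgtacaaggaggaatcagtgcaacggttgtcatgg

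Both PTB genes had the known cassette exon in a few reads. In PTB2 (chr5:21568131-21571904, minus strand), intron 3 (chr5:21570229-21571043, 815 nt) was spliced out whole in 11 of 15 and 10 of 14 reads. An inner exon was included in 3 reads of replicate 1 and 2 of replicate 2, as a 58-nt exon in 3 reads and a 61-nt exon, with an acceptor 3 nt upstream, in 2. The intron was kept in 2 reads of replicate 2, and 1 read of replicate 1 kept its first part up to the end of the inner exon. Other forms together came to 27.6% ± 1.35 (SD, n = 2), and all of them held an early stop, after 138 to 144 of 429 codons. In PTB1 (chr3:51496-54544, plus strand), the inner exon of intron 2 (102 nt, chr3:52645-52746) was read once, in 1 of 14 spanning reads, with a stop after 137 of 399 codons and 7 junctions downstream. The difference between the genes in exon inclusion, PTB1 minus PTB2, was 5 points in replicate 1 (95% Newcombe interval -27.4 to 51.8) and -14.3 points in replicate 2 (-39.9 to 15.3), so that its sign turned between the libraries and it is not resolved at this depth.

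The cassette exons are shown because each carries the stop (capitals), at chr3:52645-52746 in PTB1 and chr5:21570834-21570894 in PTB2. The shorter PTB2 exon begins at the fourth base shown.
PTB1 inner exon of 102 nt: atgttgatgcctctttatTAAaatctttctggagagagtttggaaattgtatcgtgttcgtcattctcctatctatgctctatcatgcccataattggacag
PTB2 inner exon of 61 nt: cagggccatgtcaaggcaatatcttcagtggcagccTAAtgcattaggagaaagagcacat

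PTB1 also used another donor at its last intron, intron 8. A donor 47 nt upstream of the main one was used in 1 of 4 reads of replicate 1 and 3 of 12 of replicate 2 (25% in each), and the intron was kept in 1 read of replicate 2. The upstream donor shortened the coding sequence to 314 codons, with the stop beyond the last junction. At PTB2 intron 5, 2 of 31 reads held other forms.

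**Figure D4:**
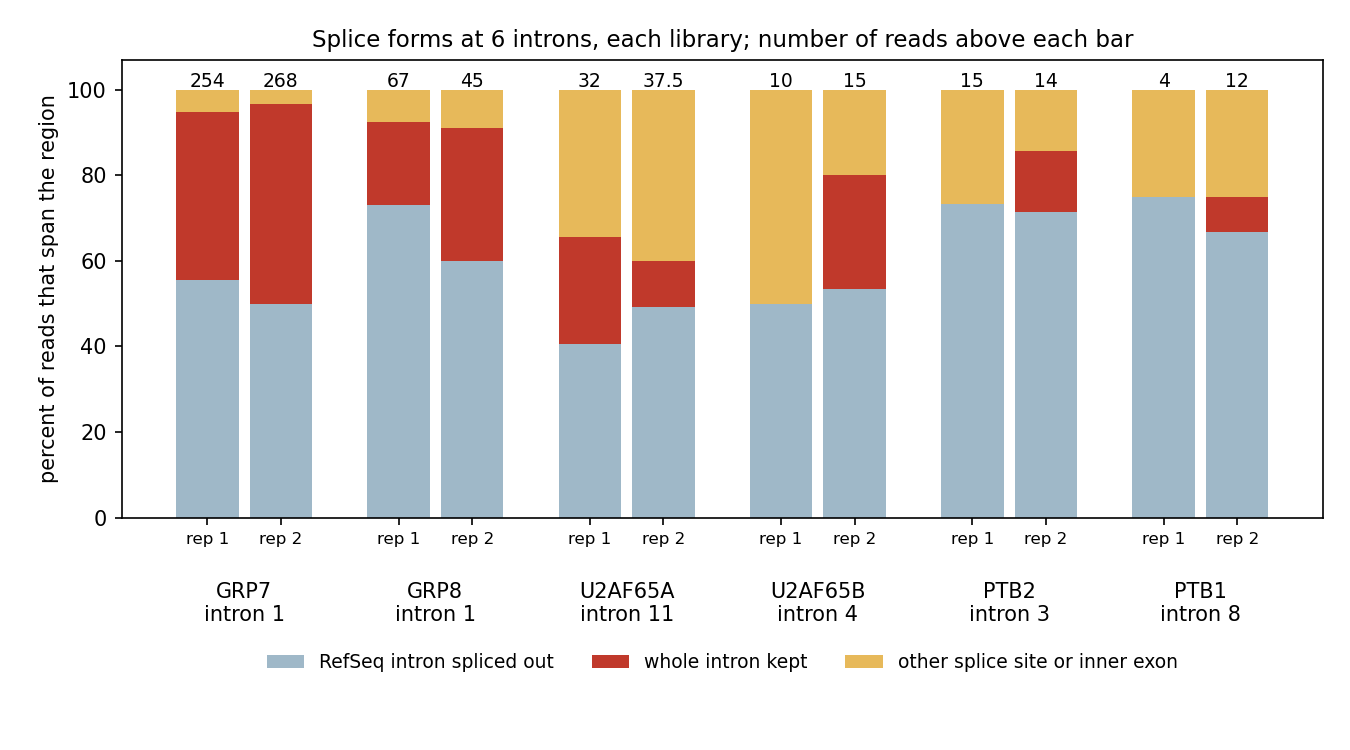
Percent of spanning reads with the RefSeq intron spliced out (blue), the whole intron kept (red) or another splice site or inner exon (yellow) at 6 introns in replicate 1 and replicate 2, with the number of spanning reads above each bar. In GRP7 and GRP8 most reads outside the RefSeq form keep the whole intron in both libraries, which in the other 4 introns holds only for U2AF65B in replicate 2.

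The small subunits were the least varied. Both have a single intron upstream of the start codon. U2AF35b (chr5:17169283-17172787, minus strand) kept it in 1 of 32 reads and 1 of 20.33, none of them among the 21 and 7 spanning reads with both a cap and a 3′ label, and the coding sequence of 283 codons is the same with it or without it. U2AF35a (chr1:9614551-9616574, plus strand) kept it in none of 14 and 11 reads, which over 25 reads allows a share of up to 12%. This count leaves out a longer RefSeq intron of U2AF35a that no read held, a choice made after the reads were seen, since only 6 reads spanned both. Compared over whole exon chains, 17.2% of U2AF35a reads and 10.7% of U2AF35b reads lay outside the gene's main chain, against 52.2% for GRP7, 41.0% for GRP8, 58.4% for U2AF65A, 57.7% for U2AF65B, 34.4% for PTB2 and 43.8% for PTB1. The median over 5061 multi-exon genes with at least 20 reads was 15.6%, with quartiles of 9.43% and 26.3%. The 6 genes named last lay above the upper quartile and the small subunits did not; PTB1, with 16 reads, is below the read minimum of that comparison. Reads that begin downstream of an intron count as outside the main chain in all genes. The shares were not adjusted for the number of introns, which is 1 in the small subunits, GRP7 and GRP8. It is 8 to 12 in the PTB genes and the large subunits.

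Of the transcripts that RefSeq lists, 2 of 2 chains of GRP7, 1 of 4 of GRP8, 3 of 4 of PTB1, 4 of 6 of PTB2, 3 of 4 of U2AF65A, 1 of 1 of U2AF65B and 1 of 2 for each small subunit had at least 1 read. In GRP7, 44.8% of reads had a chain outside RefSeq, mostly from the retained intron, which RefSeq does not list. GRP7 reads fell into 18 chains and U2AF65A reads into 14, of which 15 and 9 rested on 1 read.

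The 5′ ends of GRP7 and GRP8 were narrow and lay inside the RefSeq starts. RefSeq starts and ends are here those of the reference transcript, the RefSeq transcript of each gene whose exon chain was read most. In GRP7, 343 reads had the cap label and started at 9 positions, of which chr2:9266373 took 177 (87 in replicate 1 and 90 in replicate 2) and chr2:9266375 took 102 (49 and 53). These starts lie 184 and 182 nt downstream of the RefSeq start. In GRP8, 66 of 76 cap-labeled reads (37 and 29) started at chr4:18275017, 199 nt downstream of the RefSeq start of the reference transcript. The 4 most used GRP7 starts lie 2 nt apart, whereas GRP8 has a single dominant base. The 30 bases around them follow, with positions that had at least 5 cap-labeled reads in capitals (chr2:9266364-9266393 and chr4:18275008-18275037).
GRP7 capped start: cttcgtctacatcgttCtAcAcAtctcact
GRP8 capped start: gcgtcttatcacctcAaatcAcataagtct

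Capped starts fell on 11 positions for 19 cap-labeled reads in U2AF35a, 1 of them 3 nt upstream of the RefSeq start, and on 6 positions for 10 reads in PTB1. U2AF35b differed most from its annotation. Its most-used capped start, chr5:17171704 with 8 and 4 of 28 cap-labeled reads, lies 1083 nt downstream of the RefSeq start, and the median over all reads was 1086 nt. In U2AF65A, 21 of 45 cap-labeled reads (9 and 12) started 7 nt downstream of the RefSeq start, and median starts of U2AF65B, U2AF35a and PTB2 lay 31 to 63 nt downstream. The PTB1 median was 141 nt downstream. The cap label was on 58.1% and 59.7% of GRP7 reads, beside 55.9% and 57.3% of all nuclear reads, and the share in the other genes ranged from 32.8% (U2AF35b, replicate 2, 21.33 reads) to 75% (PTB1, replicate 1, 4 reads).

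At the 3′ end, all 8 genes had a dominant site upstream of the RefSeq end. The most-used site, counted within 25 nt, took 68.8% and 74.7% of GRP7 reads and 78.1% and 76.9% of GRP8 reads, 194 and 145 nt upstream of the RefSeq end. GRP7 had further sites 242 nt upstream (51 and 38 reads) and 143 nt upstream (38 and 33 reads). The site of PTB1 took all 16 reads, and that of U2AF65A took 93.9% and 94.8%. The test of the 3′ site against the splice form passed in no member region (adjusted p = 1 for the 4 and 6 tested, Fisher's exact test). Over all genes, 1 of 316 regions (0.316%) in replicate 1 and 5 of 386 (1.3%) in replicate 2 were called. Some member regions tested had few reads, so a difference there is not resolved. PTB1, PTB2 and the small subunits had too few reads in other forms to be tested. In GRP7, 66.0% and 74.4% of retained reads and 68.8% and 77.6% of spliced reads ended at the main site, differences of -2.79 points (95% Newcombe interval -14.8 to 8.95) and -3.21 points (-13.6 to 7.14).

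**Figure D5:**
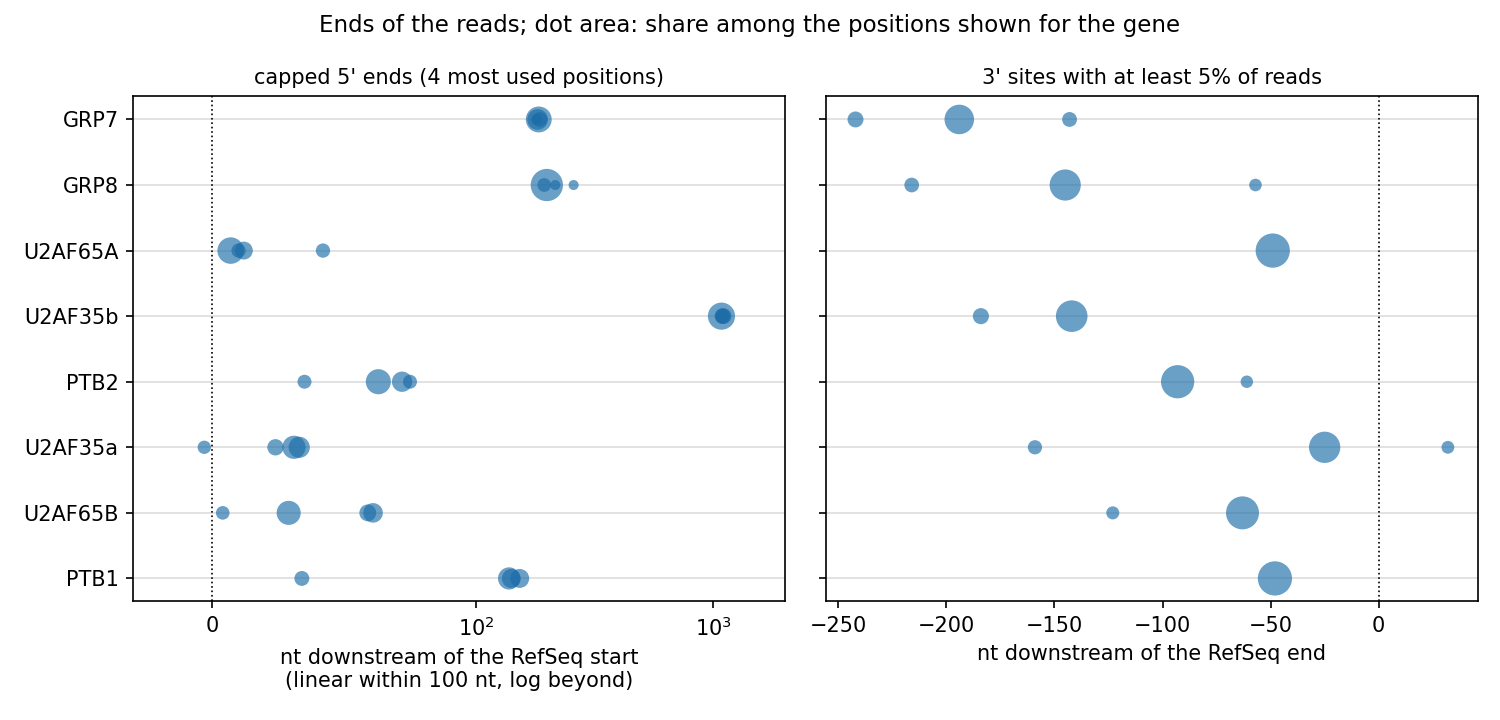
Distance of the 4 most-used capped 5′ ends (left, linear within 100 nt and log beyond) and of 3′ sites with at least 5% of reads (right) from the ends of each gene's RefSeq reference transcript, both libraries added, with dot area by share among the positions shown. U2AF35b starts 1083 nt or more downstream of its RefSeq start. Every 3′ site shown but 1 of U2AF35a lies upstream of the end of the reference transcript, and the U2AF35a gene model extends beyond that end.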

How the data were processed

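Total RNA of both replicates was sequenced as PacBio Iso-Seq. Per the labels and the study's methods, the authors aligned full-length non-chimeric reads to TAIR10 with minimap2 (junctions of annotated transcripts as a guide) and converted them with Bookend, which removed 3′ labels at A-rich sequence and masked high-error exons. Versions were not given in the sources used here. The deposited value is an expected count of reads per aligned structure, in which a read with several alignments is split, so that fractions occur. The guide favors annotated junctions.

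Reads were assigned with Python 3.11.15 and SciPy 1.17.1 to RefSeq genes of TAIR10.1, and mitochondrial alignments were left out. RPM is relative to gene-assigned reads. A splice region joins overlapping introns that were annotated or read at least 2 times, and a read spans it with 10 nt on each side. Tests were two-sided Fisher's exact tests on rounded counts over all genes, regions or pairs past a minimum (10 reads for genes, 10 spanning reads per library for regions, 5 reads per form or margin), with Benjamini-Hochberg adjustment over all of them. On simulated data, the gene test called 54 of 100 genes with a 2-fold change and 100 of 100 with a 4-fold change, all with at least 50 reads. The test of shares between libraries called 195 of 200 regions with a change of 40 points. These simulated regions all had the same depth, above that of every PTB and U2AF region. The rate therefore does not carry over to those genes. The cap label, 3′ site and pair tests were not simulated. Intervals (Wilson, Newcombe, Poisson, 95%) cover counting error only, as do limits for a count of 0 (3 counts). All 8 genes are named by rule, as are regions with at least 3 reads in other forms. The members and lists were chosen with earlier results of these data known. Gene sequences and coordinates are those of RefSeq, TAIR10.1. Alternatives covered read assignment, scaling, end labels, masked gaps, junction tolerance, read minimums and each replicate left out. The read-count test of the related genes is not reported here.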

Additional observations from a re-analysis of the deposited data

Results flagged for a closer look

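Reads on the strand opposite a member's exons entered no comparison, and for a pair of genes their number exceeded the limit that a count of 0 allows (3 reads). Opposite U2AF35b, 37 reads were found, 16 in replicate 1 and 21 in replicate 2. Of these, 22 were assigned to the neighbouring gene IPK1 (chr5:17166702-17169459, plus strand), and the rest were not followed further. The end of IPK1 overlaps the U2AF35b gene model, but only beyond the 3′ end of the U2AF35b reference transcript. Opposite PTB1, 12 reads were found, 6 in each library, and all 12 were assigned to the neighbouring gene AT3G01160 (chr3:54524-57541, minus strand). Opposite PTB2 there was 1 read and opposite U2AF65B there were 2, and none for GRP7, GRP8, U2AF65A or U2AF35a.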

How the results depend on the processing

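No paired analysis was possible because there is 1 group of samples. Of 204 values recomputed under other settings, 181 stayed within the spread between replicates or 1.5 times the count, 23 moved and 0 reversed. Part of this tally was fixed in advance. With 2 libraries, leaving 1 out cannot move a mean level, share or paralog difference beyond their SD. Levels, shares and counts also cannot change sign. The summed level of the 8 genes, 1884 RPM, became 1801 RPM scaled to all aligned reads and 2078 RPM with reads that carried both end labels. With those reads only, 3 to 8 per library, the PTB1 upstream donor share became 31%. The mean share of other forms at PTB2 intron 3 became 36.25%, but 12.5% of 8 reads in replicate 1 and 60% of 5 in replicate 2. At U2AF65B intron 4 the mean became 65%, from 80% of 5 reads in replicate 1 and 50% of 8 in replicate 2. The difference U2AF65A minus U2AF65B there became -60.6 points. Without reads that had a masked gap, U2AF65B intron 4 stood at 45.6%. Mean retention was 43.0% in GRP7 and 25.3% in GRP8. It became 45.1% and 26.1% with reads that carried both end labels, and 43.2% and 25.4% without masked gaps. These moves were smaller than the spread between replicates. The settings for junction tolerance, spanned length and unread introns left both shares unchanged. The difference GRP7 minus GRP8 was 15.5 to 20.0 points when a replicate was left out. Calls of 3′ sites over all genes fell from 1 to 0 and from 5 to 1 with sites merged within 50 nt. Calls of coupled pairs fell from 49 to 6 without replicate 1 and to 17 without replicate 2, with fewer pairs tested. In the members, 1 pair was called with both libraries and 1 without replicate 1. Without replicate 2, no member pair had enough reads to be tested. The members' median share outside the main chain exceeded that of all genes by 25.4 points, and by 33.9 points among genes with at least 50 reads (4 members). Depth limits PTB1, U2AF65B, PTB2 and U2AF35a, with 16 to 32 reads each.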
